A study of Oryza sativa Japonica Group with 74 samples.

Results

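The last 6 h of the night were followed in wild-type rice (Oryza sativa Japonica, cv. Nipponbare) by RNA sequencing of whole plants aged 21 days. Libraries of ZT24, the end of the night, were set against libraries of ZT18, where ZT counts hours from lights on. The members are 10 of the 74 libraries of the series, chosen by genotype and time. They are replicates 1 and 2 of ZT24 and replicates 1 to 3 of ZT18, in each of 2 photoperiods. Replicate 3 of ZT24 was left out for its expression profile. Long days (LD) had 14 h of light and 10 h of dark, and short days (SD) had 10 h of light and 14 h of dark. ZT24 therefore fell 10 h after dusk in LD and 14 h after dusk in SD, and ZT18 fell 4 h after dusk in LD and 8 h after dusk in SD. Plants of all 4 groups carried no mutation or transgene, and the labels do not say whether ZT24 plants were taken before or after the lamps came on, nor how many plants made up a sample. The rest of the series holds other times of day and evening complex and phytochrome mutants. ZT24 libraries carry the name ZT00 in the deposited tables.

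Plants do not wait for light to prepare for the day. Their circadian clock is a loop of repressors in which LHY, a Myb protein of dawn, alternates with the PRR proteins of the day and with the evening complex of ELF3, ELF4 and LUX at night, an order worked out mostly in Arabidopsis. Light-harvesting, pigment and nitrate assimilation genes are among the outputs that this clock can raise ahead of dawn, and starch stored by day is spent in the dark hours.

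Library totals ran from 25660600 to 37359683 counts, and 3 counts were worth 0.0713 to 0.108 CPM, a count scaled to its TMM-adjusted library total. Counting error alone is covered by that limit. Replicate 3 of ZT24 was left out in both photoperiods, because its profile went against its label. Over the 3000 most variable genes of the WT libraries, replicate 3 of ZT24 SD lay 0.330 (root mean square log2 difference) from replicate 2 of ZT24 LD, but 1.20 and 1.22 from the other libraries of its own group. Replicate 3 of ZT24 LD lay 0.389 from a ZT2 SD library and 1.24 to 1.32 from its own group. Replicates within the 4 groups used lay 0.331 to 0.552 apart, and the largest distance was that between the 2 ZT24 LD libraries. Replicate 2 of ZT24 LD thus lay closer to the left-out replicate 3 of ZT24 SD than to replicate 1 of its own group. No library was moved to another group, and the calls that ended with replicate 3 put back are given beside the main genes and together after the gene groups. The labels do not say that replicates came from separate plants, so p-values measure the spread between these samples. Because replicate 3 of ZT24 was left out for its profile, that spread covers the kept libraries only. It is likely too small for the groups as labelled, and the p-values with it.

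Much of the transcriptome moved in the late night. With edgeR's quasi-likelihood test and Benjamini-Hochberg adjustment, 10058 of 25786 tested genes (39.0%) were called at an adjusted p under 0.05 in LD, 4907 higher (19.0%) and 5151 lower (20.0%) at ZT24. In SD, 13316 genes (51.6%) were called, 6454 higher (25.0%) and 6862 lower (26.6%). The same direction was called in both photoperiods for 6569 genes (25.5%), 2983 higher (11.6% of those tested) and 3586 lower (13.9%). These shared genes made up 65.3% of the LD calls and 49.3% of the SD calls, and 1819 of them (7.05% of those tested) changed by at least 1 on the log2 scale in both. Opposite directions were called for 636 genes (2.47%). With replicate 3 put back, 5895 genes were called in LD, 7642 in SD and 3514 in the same direction in both. On log2(TPM + 1) with limma, a scale without TMM factors, 2945 genes were called higher and 8628 lower in LD, and 4148 higher and 9709 lower in SD, with the median of all genes at -0.20 in LD and -0.23 in SD. The edgeR medians were -0.01 in LD and -0.05 in SD, and small rises or falls below depend on that scaling. Fewer cells of a type and less RNA per cell cannot be told apart in whole plants. Groups hold 2 libraries at ZT24 and 3 at ZT18. All changes of single genes below are log2 fold changes of ZT24 over ZT18 from the edgeR fit. Their SE is the absolute change divided by the square root of its F statistic, as the test gives no SE itself.

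Among 152 list genes whose identity could be checked, 144 were tested. In LD 47 rose and 32 fell, and in SD 64 rose and 30 fell. That is 54.9% called in LD and 65.3% in SD, beside 39.0% and 51.6% of all tested genes. Their median log2 fold change was 0.11 in LD and 0.27 in SD. ZT24 and ZT18 libraries did not overlap for 99 members in LD and 111 in SD, beside 59.2% and 69.0% of all tested genes. The share called was below that of all tested genes in LD for the auxin response (37.5%), gibberellin (33.3%), sugar starvation and trehalose (33.3%), root (25.0%), cold and drought and heat shock lists. In SD it was below for the nitrogen assimilation, Rubisco and reference lists (50% each), gibberellin (44.4%), flowering activators (28.6%), dividing cell and meristem (25.0%), root (25.0%), heat shock (20.0%) and defence (14.3%). The libraries were apart on the same side in both photoperiods for 9872 of all tested genes (38.3%).

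**Figure D1:**
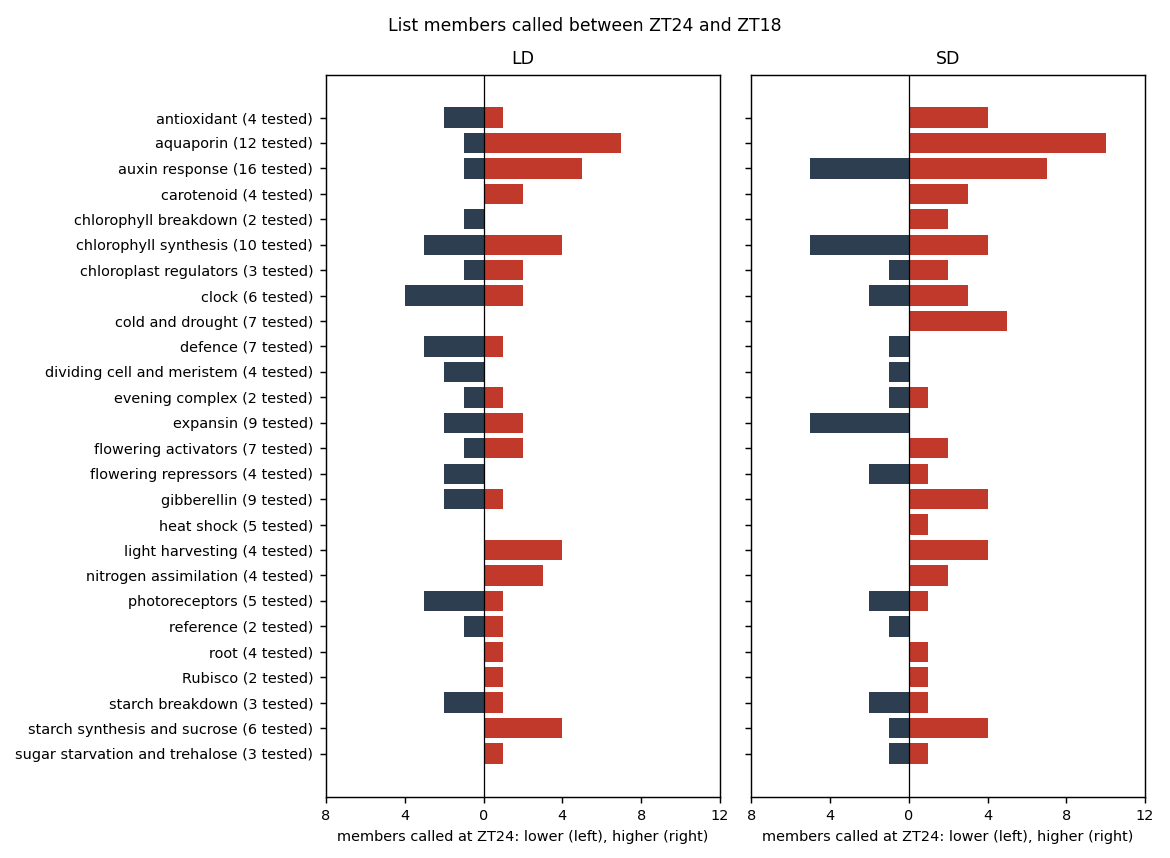
Number of list members called at ZT24 against ZT18 in each gene list, in LD (left panel) and SD (right panel); bars to the right count members that were higher at ZT24 and bars to the left members that were lower, with the number tested beside each name. All 4 light harvesting genes that passed the identity check lie on the higher side in both panels, and 10 aquaporin genes do so in SD.

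The clock genes turned over between ZT18 and ZT24. LHY rose steeply in both photoperiods, TOC1, GI and LUX fell in both, and PRR73 went in opposite directions, down in LD and up in SD. Of the 6 clock genes tested, 2 rose and 4 fell in LD, and 3 rose and 2 fell in SD. The median log2 fold change was -2.68 in LD and 1.74 in SD.

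LHY, the morning Myb repressor, had 4766 and 4759 CPM at ZT24 LD, against 116, 128 and 114 CPM at ZT18 LD. In SD it had 6595 and 6546 CPM at ZT24 SD, against 479.5, 527 and 511 CPM at ZT18 SD. All ZT24 libraries were far above all ZT18 libraries, and ZT18 already stood higher in SD than in LD. The log2 fold change was 5.32 ± 0.09 in LD (SE, adjusted p = 3.44e-12) and 3.70 ± 0.08 in SD (SE, adjusted p = 3.17e-11), or 40.0-fold and 13.0-fold. Set against the highest mean of the 6 sampled times in its own photoperiod, LHY stood at 72.1% at ZT24 and 1.80% at ZT18 in LD, where the highest mean was at ZT2. In SD the highest mean was that of ZT24 itself, and ZT18 stood at 7.82% of it. The rise differed between photoperiods by 1.62 ± 0.11 (SE, adjusted p = 3.44e-06), LD minus SD, and with replicate 3 put back by 1.82 (adjusted p = 0.0174).

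GI, a large plant-specific clock protein that also feeds the flowering pathway, had 5.61 and 5.59 CPM at ZT24 LD, against 163, 166 and 156 CPM at ZT18 LD. The corresponding SD values were 4.44 and 4.13 CPM at ZT24 SD, against 12.5, 11.9 and 12.1 CPM at ZT18 SD. Both photoperiods ended the night at a similar low level, and the groups did not overlap in either. The log2 fold change was -4.85 ± 0.09 in LD (SE, adjusted p = 7.28e-12) and -1.51 ± 0.11 in SD (SE, adjusted p = 2.05e-07). The fall differed by -3.34 ± 0.15 (SE, adjusted p = 1.20e-07), LD minus SD, and ZT18 LD was the group that stood apart. Replicate 3 of ZT24 LD held 176 CPM of GI, scaled to its own total, and with replicate 3 put back in both the log2 fold change was -1.11 in LD (adjusted p = 0.475) and -1.44 in SD (adjusted p = 0.353).

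TOC1, the evening PRR gene, had 7.99 and 8.52 CPM at ZT24 LD, against 31.2, 28.8 and 31.7 CPM at ZT18 LD. In short days the values were 3.90 and 3.41 CPM at ZT24 SD, against 18.7, 15.9 and 19.5 CPM at ZT18 SD. ZT24 libraries were below every ZT18 library in both photoperiods. TOC1 fell, at -1.89 ± 0.12 in LD (SE, adjusted p = 1.51e-07) and -2.31 ± 0.14 in SD (SE, adjusted p = 8.06e-08), and these falls were not called different, at 0.42 ± 0.20 (SE, adjusted p = 0.140) LD minus SD. It kept its call with replicate 3 put back, at -1.90 in LD (adjusted p = 0.000551) and -1.69 in SD (adjusted p = 0.00108).

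PRR73, a daytime repressor gene, had 0.881 and 1.15 CPM at ZT24 LD, against 19.8, 18.8 and 20.1 CPM at ZT18 LD. Its SD values were 10.8 and 10.6 CPM at ZT24 SD, against 1.03, 0.933 and 1.66 CPM at ZT18 SD. The LD groups and the SD groups were each apart, in opposite order. The log2 fold change was -4.26 ± 0.20 in LD (SE, adjusted p = 8.81e-09) and 3.12 ± 0.19 in SD (SE, adjusted p = 5.17e-08), a difference of -7.38 ± 0.27 (SE, adjusted p = 2.43e-08). At ZT24 SD the mean was still 0.783% of that gene's ZT6 SD mean. Replicate 3 of ZT24 LD held 699.8 CPM of PRR73, scaled to its own total, and putting replicate 3 back in both gave 3.86 in LD (adjusted p = 0.147) and 2.68 in SD (adjusted p = 0.337).

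PRR37, its close relative and the heading date locus Hd2, had 1.53 and 1.52 CPM at ZT24 LD, against 15.6, 18.9 and 16.5 CPM at ZT18 LD. Under short days it had 2.24 and 2.44 CPM at ZT24 SD, against 1.53, 1.41 and 2.43 CPM at ZT18 SD. LD libraries of ZT24 were about as low as both SD groups, which overlapped. PRR37 fell, at -3.48 ± 0.21 in LD (SE, adjusted p = 7.72e-08), and the value of 0.37 ± 0.26 in SD (SE, adjusted p = 0.266) was not called. With replicate 3 put back PRR37 was at 0.63 in LD (adjusted p = 0.720).

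PRR95, whose relatives follow the morning PRR genes in Arabidopsis, had 8.58 and 6.28 CPM at ZT24 LD, against 4.58, 3.66 and 3.11 CPM at ZT18 LD. In SD the values were 39.8 and 47.3 CPM at ZT24 SD, against 2.31, 2.29 and 2.23 CPM at ZT18 SD. SD libraries of ZT24 stood highest and the groups were apart in both photoperiods. PRR95 rose by 1.00 ± 0.19 in LD (SE, adjusted p = 0.00127) and 4.26 ± 0.16 in SD (SE, adjusted p = 1.51e-09), and the rise was larger in SD in these libraries, at -3.26 ± 0.26 (SE, adjusted p = 7.80e-06) LD minus SD. With replicate 3 put back the values were 4.18 in LD (adjusted p = 0.0289) and 3.82 in SD (adjusted p = 0.0367), and the difference turned to 0.35 (adjusted p = 0.943). At ZT24 the means were 0.800% in LD and 3.69% in SD of the ZT10 mean of the same photoperiod.

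**Figure D2:**
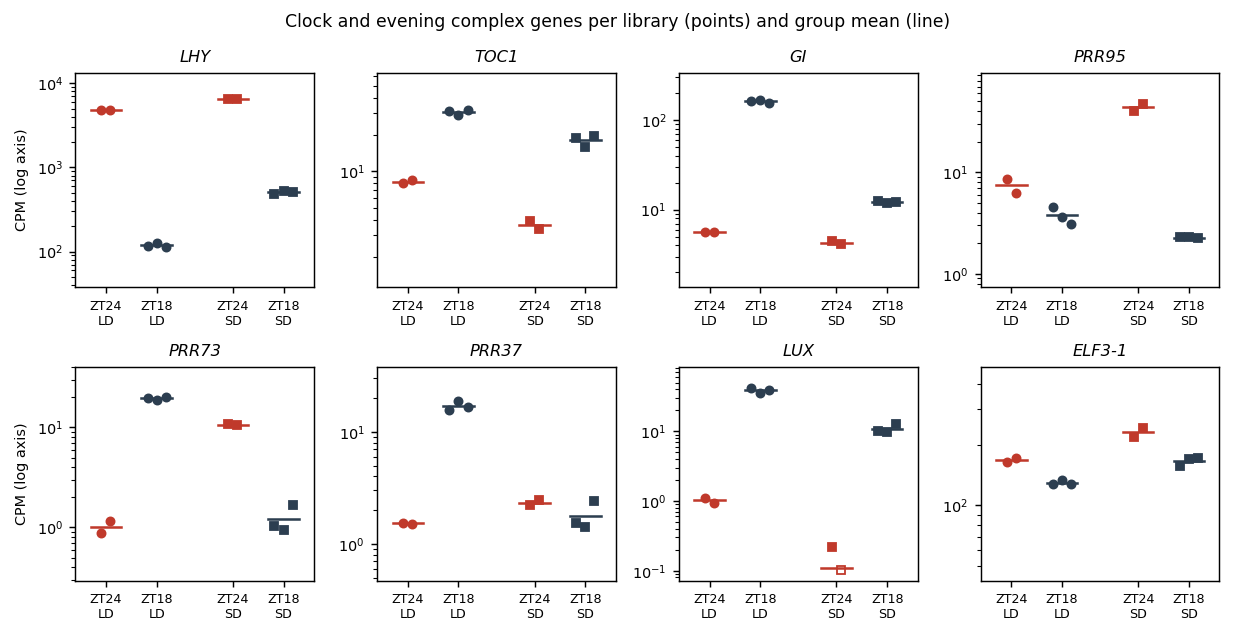
CPM on TMM-scaled totals (log axes, each gene on its own range) of the clock and evening complex genes in single libraries (points) with group means (lines), ZT24 in red and ZT18 in dark blue, LD as circles and SD as squares; the open square for LUX is a library with 0 counts drawn near the lower edge. LHY lies higher at ZT24 in both photoperiods, TOC1, GI and LUX lower, and PRR73 lower in LD and higher in SD.

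Of the 2 evening complex genes tested, LUX fell and ELF3-1 rose slightly. Both were called in LD and in SD, beside 39.0% and 51.6% of all tested genes. LUX, the Myb subunit that binds DNA, had 1.11 and 0.932 CPM at ZT24 LD, against 41.8, 35.6 and 39.8 CPM at ZT18 LD. SD plants had 0.216 and 0 CPM at ZT24 SD, against 10.0, 9.87 and 12.8 CPM at ZT18 SD. LUX was near its counting limit at ZT24 SD, with 6 counts in replicate 1 and 0 in replicate 2. The log2 fold change was -5.25 ± 0.24 in LD (SE, adjusted p = 3.15e-09) and -6.71 ± 0.43 in SD (SE, adjusted p = 5.57e-08). Without replicate 1 of ZT24 SD, 0 counts remained in that group, and the fitted -11.57 is no measure of size. With replicate 3 put back the values were -5.68 in LD (adjusted p = 0.000110) and -4.13 in SD (adjusted p = 0.000877).

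ELF3-1, which encodes the scaffold subunit, had 163 and 171 CPM at ZT24 LD, against 128, 133 and 127 CPM at ZT18 LD. SD libraries held 219 and 242 CPM at ZT24 SD, against 156, 169 and 171 CPM at ZT18 SD. The groups did not overlap, but the rise was small, at 0.37 ± 0.07 in LD (SE, adjusted p = 0.00196) and 0.48 ± 0.07 in SD (SE, adjusted p = 0.000165). With limma on log2(TPM + 1) it was 0.15 in LD (adjusted p = 0.114), and with replicate 3 put back the calls were lost at 0.26 in LD (adjusted p = 0.243) and 0.40 in SD (adjusted p = 0.0633).

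Among the largest shared rises of list genes were those of the light-harvesting genes, which encode chlorophyll a/b-binding proteins of photosystem II. All 4 tested members rose in both photoperiods, with a median log2 fold change of 5.01 in LD and 6.17 in SD. Of all tested genes, 39.0% were called in LD and 51.6% in SD. LHCB4, LHCB5, LHCB6, LHCA1 to LHCA6 and PSBS1 of the same list did not pass the identity check and are not counted here. Among 2888 genes that rose in both with no overlap of libraries and a mean of at least 1 CPM, ranked by the smaller of their LD and SD changes, LHCB2 was at rank 5, CAB2R at 12, CAB1R at 16 and LHCB3 at 47. LHY was at rank 45.

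LHCB2 had 442 and 556 CPM at ZT24 LD, against 6.30, 5.35 and 4.94 CPM at ZT18 LD. The SD values were 2268 and 1709 CPM at ZT24 SD, against 6.87, 10.7 and 8.52 CPM at ZT18 SD. ZT24 libraries were above all ZT18 libraries, and SD libraries of ZT24 were the highest. LHCB2 rose by 6.51 ± 0.19 in LD (SE, adjusted p = 5.07e-10) and 7.84 ± 0.19 in SD (SE, adjusted p = 1.52e-10). CAB1R had 148 and 220.2 CPM at ZT24 LD, against 6.52, 7.10 and 4.80 CPM at ZT18 LD. Its counterpart in short days was 917 and 746 CPM at ZT24 SD, against 4.95, 6.56 and 6.01 CPM at ZT18 SD. ZT18 levels of CAB1R overlapped between LD and SD, while ZT24 levels were higher in SD. CAB1R rose by 4.92 ± 0.21 in LD (SE, adjusted p = 2.44e-08) and 7.15 ± 0.21 in SD (SE, adjusted p = 1.69e-09).

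CAB2R had 779 and 1062 CPM at ZT24 LD, against 30.5, 23.7 and 26.3 CPM at ZT18 LD. Short-day libraries had 2543 and 1917 CPM at ZT24 SD, against 57.2, 64.7 and 62.9 CPM at ZT18 SD. Here ZT24 and ZT18 were both higher in SD, and the rises of 5.11 ± 0.17 in LD (SE, adjusted p = 9.70e-10) and 5.18 ± 0.17 in SD (SE, adjusted p = 7.48e-10) were not called different, at -0.07 ± 0.22 (SE, adjusted p = 0.853) LD minus SD. LHCB3 rose by 3.65 ± 0.17 in LD (SE, adjusted p = 2.99e-08) and 4.22 ± 0.17 in SD (SE, adjusted p = 7.56e-09), to means of 309 CPM at ZT24 LD and 588 CPM at ZT24 SD, against 24.6 CPM at ZT18 LD and 31.5 CPM at ZT18 SD. For CAB1R and CAB2R, ZT24 stood below the daily maximum. Against the highest mean of the 6 times, CAB1R was at 4.51% at ZT24 and 0.150% at ZT18 in LD, and at 14.5% at ZT24 and 0.104% at ZT18 in SD. CAB2R was at 31.4% at ZT24 and 0.917% at ZT18 in LD, and at 40.2% at ZT24 and 1.13% at ZT18 in SD. All 4 kept their calls in every alternative tried, but with replicate 3 put back the LD rises were larger, at 8.25 for LHCB2, 8.03 for CAB1R, 6.05 for CAB2R and 5.66 for LHCB3, and the LD minus SD differences of CAB1R and LHCB2 turned to 1.24 (adjusted p = 0.727) and 0.75 (adjusted p = 0.783).

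Chlorophyll synthesis did not move as a block. Of 10 genes tested, 4 rose and 3 fell in LD, and 4 rose and 5 fell in SD, with medians of -0.04 and -0.51. The share called was 70.0% in LD and 90.0% in SD, beside 39.0% and 51.6% of all tested genes. The risers were HEMA1 and CHLH at the entry of the tetrapyrrole and chlorophyll branches, PORA and CAO1. CAO1, the oxygenase that turns chlorophyll a into chlorophyll b, had 622 and 736 CPM at ZT24 LD, against 76.9, 70.7 and 68.5 CPM at ZT18 LD. Under short days there were 897 and 865 CPM at ZT24 SD, against 159, 184 and 156 CPM at ZT18 SD. The groups were far apart, and CAO1 rose by 3.24 ± 0.10 in LD (SE, adjusted p = 2.55e-10) and 2.41 ± 0.10 in SD (SE, adjusted p = 2.00e-09).

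CHLH, the porphyrin-binding subunit of magnesium chelatase, had 559 and 753 CPM at ZT24 LD, against 134, 137 and 122 CPM at ZT18 LD. SD values were 1379 and 1269 CPM at ZT24 SD, against 278, 326 and 312 CPM at ZT18 SD. CHLH rose by 2.33 ± 0.12 in LD (SE, adjusted p = 1.90e-08) and 2.12 ± 0.12 in SD (SE, adjusted p = 2.68e-08), with no overlap of libraries. The other chelatase subunits did not follow it. CHLD fell, at -0.50 ± 0.12 in LD (SE, adjusted p = 0.00673) and -1.47 ± 0.13 in SD (SE, adjusted p = 1.52e-06), and CHLI, at -0.22 in LD (adjusted p = 0.165, not called), fell, at -0.86 ± 0.12 in SD (SE, adjusted p = 7.51e-05).

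PORA, a light-dependent protochlorophyllide reductase of dark-grown seedlings, had 219 and 207 CPM at ZT24 LD, against 40.4, 23.0 and 30.4 CPM at ZT18 LD. Short-day libraries showed 758 and 453 CPM at ZT24 SD, against 174, 210.4 and 167 CPM at ZT18 SD. The ZT24 SD replicates lay well apart, and the groups still did not overlap. It rose by 2.78 ± 0.27 in LD (SE, adjusted p = 7.18e-05) and 1.72 ± 0.25 in SD (SE, adjusted p = 0.000514). HEMA1, glutamyl-tRNA reductase, rose by 1.45 ± 0.13 in LD (SE, adjusted p = 2.98e-06) and 1.24 ± 0.13 in SD (SE, adjusted p = 5.63e-06), and its SD call was lost with replicate 3 put back, at 1.00 in SD (adjusted p = 0.0658).

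CHLG, chlorophyll synthase, which attaches the phytol tail, had 70.3 and 85.7 CPM at ZT24 LD, against 111, 118 and 97.9 CPM at ZT18 LD. Under short days it had 30.7 and 27.9 CPM at ZT24 SD, against 123, 141 and 119 CPM at ZT18 SD. It fell, at -0.48 ± 0.11 in LD (SE, adjusted p = 0.00506) and -2.13 ± 0.12 in SD (SE, adjusted p = 4.38e-08), and further in SD in these libraries, at 1.65 ± 0.16 (SE, adjusted p = 3.38e-05) LD minus SD, a difference that was 0.78 (adjusted p = 0.421) with replicate 3 put back. GSA, which makes aminolevulinate, fell, at -0.45 ± 0.13 in LD (SE, adjusted p = 0.0149) and -1.09 ± 0.13 in SD (SE, adjusted p = 2.06e-05), but was at 0.08 in LD (adjusted p = 0.870) with replicate 3 put back. DVR, the divinyl reductase, fell, at -0.78 ± 0.17 in SD (SE, adjusted p = 0.00226), and was at -0.05 in LD, not called.

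Both GLK genes, which encode activators of chloroplast genes, rose. GLK1 had 347 and 379.6 CPM at ZT24 LD, against 99.6, 109 and 93.6 CPM at ZT18 LD. Short-day plants had 511 and 506 CPM at ZT24 SD, against 153, 167 and 178 CPM at ZT18 SD. Its rise was 1.85 ± 0.09 in LD (SE, adjusted p = 1.08e-08) and 1.61 ± 0.09 in SD (SE, adjusted p = 2.27e-08), and GLK2 rose by 0.89 ± 0.07 in LD (SE, adjusted p = 1.29e-06) and 0.83 ± 0.07 in SD (SE, adjusted p = 1.23e-06). Neither rise was called different between photoperiods. LIR1, a light-induced chloroplast protein that binds ferredoxin-NADP reductase, went the other way. It had 56.8 and 73.0 CPM at ZT24 LD, against 1062, 928 and 979.7 CPM at ZT18 LD, and 114 and 91.4 CPM at ZT24 SD, against 509, 499 and 548 CPM at ZT18 SD. LIR1 fell, at -3.93 ± 0.14 in LD (SE, adjusted p = 7.40e-10) and -2.34 ± 0.13 in SD (SE, adjusted p = 2.49e-08), to 3.52% of its ZT14 mean in LD and 4.39% of its ZT10 mean in SD.

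RCA, Rubisco activase, which restores Rubisco to its active form, had 12673 and 12296 CPM at ZT24 LD, against 2906, 2740.3 and 2234 CPM at ZT18 LD. In SD there were 15366 and 13561 CPM at ZT24 SD, against 5724, 5945 and 4931 CPM at ZT18 SD. RCA rose by 2.25 ± 0.12 in LD (SE, adjusted p = 2.99e-08) and 1.39 ± 0.12 in SD (SE, adjusted p = 1.26e-06), and stood at 74.9% at ZT24 and 15.7% at ZT18 in LD of its highest mean, and at 79.4% at ZT24 and 30.9% at ZT18 in SD. RBCS2, a Rubisco small subunit gene with near-identical copies whose reads may be shared, was at 0.35 in LD (adjusted p = 0.0690) and 0.09 in SD (adjusted p = 0.619).

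**Figure D3:**
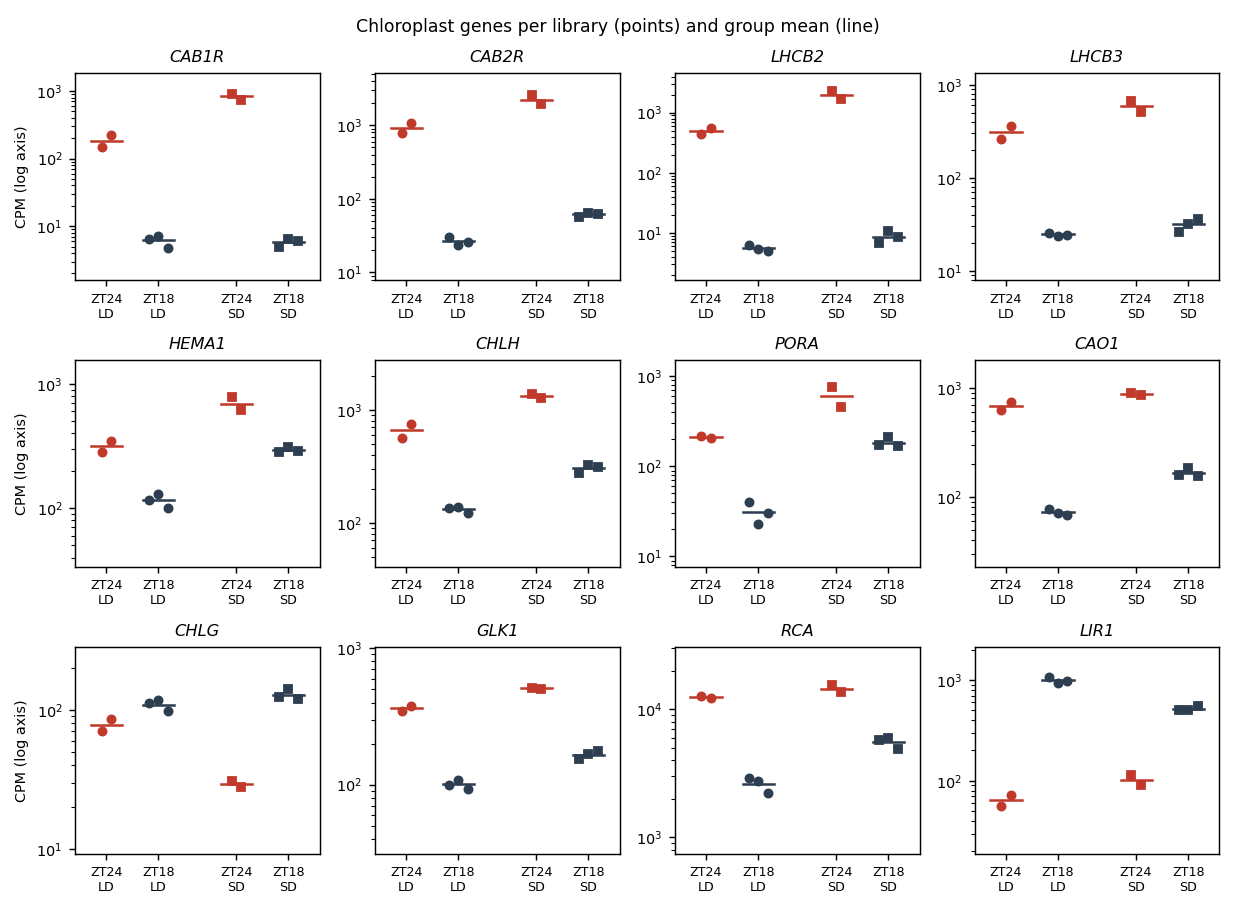
CPM on TMM-scaled totals (log axes, each gene on its own range) of 12 chloroplast-related genes in single libraries (points) with group means (lines), ZT24 in red and ZT18 in dark blue, LD as circles and SD as squares. The light-harvesting genes, HEMA1, CHLH, PORA, CAO1, GLK1 and RCA lie higher at ZT24 in both photoperiods, and CHLG and LIR1 lie lower.

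Of 4 carotenoid genes tested, 2 rose in LD and 3 in SD. PSY2, a phytoene synthase at the entry of carotenoid synthesis, had 369.8 and 414 CPM at ZT24 LD, against 63.0, 65.8 and 59.8 CPM at ZT18 LD, and 263 and 252 CPM at ZT24 SD, against 65.9, 69.6 and 63.1 CPM at ZT18 SD. It rose by 2.64 ± 0.08 in LD (SE, adjusted p = 2.19e-10) and 1.96 ± 0.08 in SD (SE, adjusted p = 1.99e-09). ZEP, zeaxanthin epoxidase, had 41.8 and 41.3 CPM at ZT24 LD, against 40.6, 44.0 and 40.1 CPM at ZT18 LD. In SD it had 111 and 101 CPM at ZT24 SD, against 20.2, 18.1 and 17.5 CPM at ZT18 SD. The LD groups overlapped, at -0.00 ± 0.09 in LD (SE, adjusted p = 0.986), and ZEP rose by 2.51 ± 0.09 in SD (SE, adjusted p = 6.07e-10), or 5.71-fold. NCED3, which cleaves epoxycarotenoids on the way to abscisic acid, was at 0.12 ± 0.24 in LD (SE, adjusted p = 0.723) and rose 4.29-fold in SD (adjusted p = 5.37e-06). PSY1 rose by 0.38 ± 0.10 in LD (SE, adjusted p = 0.0102), a call lost without replicate 2 of ZT24 LD.

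Both chlorophyll breakdown genes rose in SD, where 51.6% of all tested genes were called. SGR, a magnesium dechelatase, had 205 and 165 CPM at ZT24 SD, against 51.4, 27.3 and 35.7 CPM at ZT18 SD, a rise of 2.28 ± 0.21 in SD (SE, adjusted p = 1.56e-05), while the LD groups overlapped, at 0.10 ± 0.20 in LD (SE, adjusted p = 0.738). NYC1, a chlorophyll b reductase, fell, at -0.39 ± 0.11 in LD (SE, adjusted p = 0.0111), and rose by 0.93 ± 0.10 in SD (SE, adjusted p = 1.05e-05). SGR rose in SD with replicate 3 put back as well, at 2.23 in SD (adjusted p = 0.000235), and its LD minus SD difference of -2.18 ± 0.30 (SE, adjusted p = 0.000846) was then -2.39 (adjusted p = 0.0271).

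Aquaporin genes, which encode water channels of the plasma membrane (PIP) and of the vacuole (TIP), were mostly higher at the end of the night. Of 12 tested, 7 rose and 1 fell in LD, and in SD 10 rose and 2 were not called. The share called was 66.7% in LD and 83.3% in SD, beside 39.0% and 51.6% of all tested genes. The median log2 fold change was 0.85 in LD and 1.36 in SD. Of the 7 that rose in LD, 7 rose in SD too.

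PIP1;3 had 81.3 and 70.8 CPM at ZT24 LD, against 32.4, 26.3 and 31.1 CPM at ZT18 LD. SD plants had 204 and 227 CPM at ZT24 SD, against 21.9, 18.9 and 20.0 CPM at ZT18 SD. ZT18 levels were a little lower in SD and ZT24 levels were higher. It rose by 1.35 ± 0.11 in LD (SE, adjusted p = 9.60e-07) and 3.41 ± 0.11 in SD (SE, adjusted p = 3.02e-10), and ZT24 was its highest mean of the day in SD. PIP2;4 had 3.46 and 3.08 CPM at ZT24 LD, against 0.716, 1.05 and 1.07 CPM at ZT18 LD, and 31.8 and 34.9 CPM at ZT24 SD, against 1.42, 1.20 and 1.10 CPM at ZT18 SD. Its rise was 1.75 ± 0.22 in LD (SE, adjusted p = 5.34e-05) and 4.75 ± 0.14 in SD (SE, adjusted p = 2.23e-10). PIP2;4 belongs to a family of close copies, so reads may be shared with them. Its call was lost with replicate 3 put back, at 2.40 in LD (adjusted p = 0.0592).

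TIP1;2 had 47.3 and 48.3 CPM at ZT24 LD, against 37.2, 36.0 and 40.1 CPM at ZT18 LD. The SD values were 372 and 437 CPM at ZT24 SD, against 29.4, 24.6 and 29.5 CPM at ZT18 SD. It rose by 3.86 ± 0.10 in SD (SE, adjusted p = 7.77e-11). The rise was 0.34 ± 0.10 in LD (SE, adjusted p = 0.0189), a call lost with limma on log2(TPM + 1) and without replicate 1 or 2 of ZT24 LD or replicate 2 of ZT18 LD. TIP2;2 fell, at -1.0 ± 0.14 in LD (SE, adjusted p = 0.000160), and was at 0.24 in SD, not called. PIP1;1, PIP1;2, PIP2;1 and PIP2;2 rose in both photoperiods, by 1.17, 0.76, 1.52 and 0.93 in LD and by 1.41, 0.95, 1.31 and 1.75 in SD. All 4 kept these calls with replicate 3 put back. PIP2;5 was called higher in SD, at 0.469 and 0.876 CPM at ZT24 against 0 counts at ZT18, and no fold is given.

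**Figure D4:**
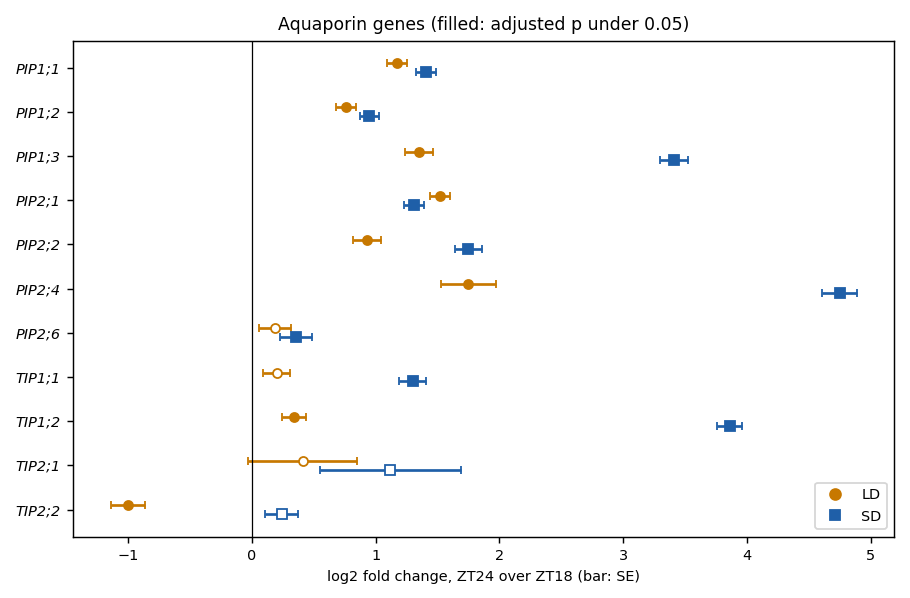
log2 fold change of ZT24 over ZT18 (x axis) of 11 aquaporin genes in LD (orange circles) and SD (blue squares), filled where the adjusted p was under 0.05. Bars are SE, worked out from the change and its edgeR F statistic. PIP2;5, with 0 counts at ZT18, is not drawn. TIP1;2, PIP2;4 and PIP1;3 lie far to the right in SD, and TIP2;2 lies to the left in LD.

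Of 3 starch breakdown genes, 2 fell and 1 rose in each photoperiod. All 3 were thus called in both, beside 39.0% of all tested genes in LD and 51.6% in SD. ISA1, a debranching isoamylase that is also needed to build crystalline starch, had 26.4 and 33.2 CPM at ZT24 LD, against 59.8, 63.4 and 56.4 CPM at ZT18 LD, and 5.95 and 6.38 CPM at ZT24 SD, against 36.4, 43.8 and 36.8 CPM at ZT18 SD. It fell, at -1.01 ± 0.12 in LD (SE, adjusted p = 2.71e-05) and -2.66 ± 0.15 in SD (SE, adjusted p = 2.50e-08), calls lost with replicate 3 put back, at -1.54 in LD (adjusted p = 0.169) and -1.61 in SD (adjusted p = 0.135). DPE2, the cytosolic enzyme that uses maltose from starch in Arabidopsis, fell, at -0.44 ± 0.11 in LD (SE, adjusted p = 0.00812) and -1.08 ± 0.12 in SD (SE, adjusted p = 7.95e-06), and its LD call was lost with replicate 3 put back, at -0.18 in LD (adjusted p = 0.646). DPE1, the plastid disproportionating enzyme, rose by 0.41 ± 0.14 in LD (SE, adjusted p = 0.0345) and 0.88 ± 0.15 in SD (SE, adjusted p = 0.000388). The LD call of DPE1 was lost without replicate 1 of ZT24 LD, at 0.23 (adjusted p = 0.334), without replicate 2 or 3 of ZT18 LD, and with limma on log2(TPM + 1), at 0.17 (adjusted p = 0.318).

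Starch synthase genes SSI and SSIIb rose, SSI by 0.96 ± 0.10 in LD (SE, adjusted p = 1.60e-05) and 0.96 ± 0.12 in SD (SE, adjusted p = 2.06e-05), and SSIIb by 1.03 ± 0.08 in LD (SE, adjusted p = 4.96e-07) and 0.58 ± 0.08 in SD (SE, adjusted p = 3.82e-05). SUT1, a sucrose transporter of the plasma membrane, rose by 0.54 ± 0.08 in LD (SE, adjusted p = 0.000270) and 0.58 ± 0.08 in SD (SE, adjusted p = 8.82e-05), with its highest mean of the day at ZT24 in both photoperiods. AGPS2, a small subunit of ADP-glucose pyrophosphorylase, fell, at -0.45 ± 0.09 in SD (SE, adjusted p = 0.00138), and was at 0.18 in LD, not called. In all, 4 of 6 synthesis and sucrose genes rose in each photoperiod and 1 fell in SD, with medians of 0.39 and 0.43. Calls thus covered 66.7% of them in LD and 83.3% in SD, beside 39.0% and 51.6% of all tested genes. SnRK1A, a kinase of the sugar starvation response, rose by 0.25 ± 0.09 in LD (SE, adjusted p = 0.0400) and 0.59 ± 0.09 in SD (SE, adjusted p = 0.000128), and TPP1, a trehalose phosphate phosphatase, fell, at -0.47 ± 0.18 in SD (SE, adjusted p = 0.0486). The LD call of SnRK1A was lost without any 1 of 7 of the 10 libraries, and the SD call of TPP1 likewise without any 1 of 7. RAmy3D, a starvation amylase, had at most 0.389 CPM in any library and was not called.

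Of 4 nitrogen assimilation genes, 3 rose in LD and 2 in SD. NIA1, nitrate reductase, had 452 and 493 CPM at ZT24 LD, against 76.5, 78.6 and 107 CPM at ZT18 LD. Under short days there were 1545 and 1753 CPM at ZT24 SD, against 481, 499 and 523 CPM at ZT18 SD. SD libraries were higher at both times, and NIA1 rose by 2.43 ± 0.13 in LD (SE, adjusted p = 2.83e-08) and 1.72 ± 0.12 in SD (SE, adjusted p = 3.04e-07). GS1;1, cytosolic glutamine synthetase, rose by 0.92 ± 0.10 in LD (SE, adjusted p = 1.52e-05) and 1.12 ± 0.10 in SD (SE, adjusted p = 1.55e-06). GS2, the plastid enzyme, rose by 0.43 ± 0.10 in LD (SE, adjusted p = 0.00485) and was at -0.04 in SD, not called. Its LD call was lost without replicate 2 of ZT24 LD, at 0.32 (adjusted p = 0.0638), and with limma on log2(TPM + 1), at 0.21 (adjusted p = 0.0895). Fd-GOGAT was called in neither, at 0.24 and -0.33, though its LD minus SD difference of 0.57 ± 0.19 (SE, adjusted p = 0.0473) was.

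Phytochrome transcripts fell, PHYB in both photoperiods and PHYA and PHYC in LD. PHYB, a red light receptor, had 80.2 and 84.3 CPM at ZT24 LD, against 136, 124 and 128 CPM at ZT18 LD, and 99.8 and 115 CPM at ZT24 SD, against 158, 163 and 167 CPM at ZT18 SD. It fell, at -0.66 ± 0.08 in LD (SE, adjusted p = 5.13e-05) and -0.60 ± 0.08 in SD (SE, adjusted p = 5.57e-05). PHYC fell, at -0.58 ± 0.07 in LD (SE, adjusted p = 6.56e-05), and was at -0.13 in SD, not called, and PHYA fell, at -0.52 ± 0.09 in LD (SE, adjusted p = 0.000763), and was at -0.16 in SD, not called. PHOT1A, a blue light receptor of phototropism, fell, at -0.74 ± 0.09 in SD (SE, adjusted p = 2.45e-05), and was at -0.08 in LD, not called. PIL16, a bHLH gene related to the phytochrome-interacting factors, had 8.19 and 7.27 CPM at ZT24 LD, against 5.26, 3.97 and 3.71 CPM at ZT18 LD, and 13.8 and 16.1 CPM at ZT24 SD, against 5.62, 4.81 and 5.71 CPM at ZT18 SD. It rose by 0.87 ± 0.17 in LD (SE, adjusted p = 0.00153) and 1.48 ± 0.15 in SD (SE, adjusted p = 4.63e-06), and all of these PHYB and PIL16 calls held with replicate 3 put back.

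Of 4 flowering repressor genes, 2 fell in LD, and in SD 2 fell and 1 rose. Hd1, the rice CONSTANS, which represses flowering in long days and promotes it in short days, had 7.70 and 13.1 CPM at ZT24 LD, against 16.4, 16.8 and 19.8 CPM at ZT18 LD, and 5.19 and 3.91 CPM at ZT24 SD, against 13.5, 13.3 and 14.9 CPM at ZT18 SD. It fell, at -0.76 ± 0.19 in LD (SE, adjusted p = 0.00679) and -1.62 ± 0.22 in SD (SE, adjusted p = 6.85e-05), and its LD call was lost without replicate 1 of ZT24 LD, at -0.43 (adjusted p = 0.0778). DTH8, an NF-YB subunit that acts with it, fell, at -1.01 ± 0.23 in LD (SE, adjusted p = 0.00386) and -0.75 ± 0.23 in SD (SE, adjusted p = 0.0169). The SD call of DTH8 was lost without replicate 2 of ZT24 SD or replicate 3 of ZT18 SD. Hd16, a casein kinase, rose by 0.27 ± 0.07 in SD (SE, adjusted p = 0.00863). Of the 7 activator genes tested, 2 rose and 1 fell in LD, and 2 rose in SD, or 42.9% called in LD and 28.6% in SD, beside 39.0% and 51.6% of all tested genes. Ehd4, a zinc finger activator, rose by 0.46 ± 0.07 in LD (SE, adjusted p = 0.000390) and 0.55 ± 0.07 in SD (SE, adjusted p = 5.89e-05), MADS50 rose by 0.42 ± 0.09 in LD (SE, adjusted p = 0.00371), Ehd3 fell, at -0.26 ± 0.10 in LD (SE, adjusted p = 0.0482), and MADS14 rose by 1.33 ± 0.36 in SD (SE, adjusted p = 0.00851). The call of Ehd3 was lost without any 1 of 9 of the 10 libraries and with DESeq2, and that of MADS14 without replicate 1 of ZT24 SD, at 1.02 (adjusted p = 0.103), and with DESeq2. Hd3a, which encodes a florigen, had 0 counts in all 5 LD libraries. In short days it had 2.02 and 2.13 CPM at ZT24 SD, against 1.14, 1.75 and 1.87 CPM at ZT18 SD, and its value of 0.39 ± 0.27 in SD (SE, adjusted p = 0.272) was not called.

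Auxin response genes of the Aux/IAA family, repressors that auxin removes, went both ways. Of 16 tested, 5 rose and 1 fell in LD, and 7 rose and 5 fell in SD, with medians of 0.18 and 0.11. The share called was 37.5% in LD and 75.0% in SD, beside 39.0% and 51.6% of all tested genes. IAA1 had 95.2 and 94.9 CPM at ZT24 LD, against 30.7, 31.3 and 33.9 CPM at ZT18 LD, and 150.2 and 140.4 CPM at ZT24 SD, against 77.6, 72.8 and 85.3 CPM at ZT18 SD. It rose by 1.57 ± 0.08 in LD (SE, adjusted p = 2.99e-08) and 0.89 ± 0.08 in SD (SE, adjusted p = 2.11e-06), and ZT24 was its highest mean of the day in both. IAA31 rose by 1.09 ± 0.26 in LD (SE, adjusted p = 0.00509) and 0.94 ± 0.19 in SD (SE, adjusted p = 0.00145), IAA6 by 0.98 ± 0.12 in SD (SE, adjusted p = 1.88e-05) and IAA20 by 2.00 ± 0.43 in SD (SE, adjusted p = 0.00150). IAA20 stayed low, at 1.70 and 2.35 CPM at ZT24 SD. The LD values of IAA6 and IAA20, 0.26 and 0.76, were not called.

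Of 9 gibberellin genes tested, 1 rose and 2 fell in LD and 4 rose in SD, or 33.3% called in LD and 44.4% in SD, beside 39.0% and 51.6% of all tested genes. GA20ox2, the gibberellin oxidase known as the semi-dwarf gene, had 4.11 and 4.38 CPM at ZT24 LD, against 6.52, 6.79 and 7.11 CPM at ZT18 LD, and 12.0 and 12.7 CPM at ZT24 SD, against 2.86, 3.94 and 2.58 CPM at ZT18 SD. It fell, at -0.68 ± 0.17 in LD (SE, adjusted p = 0.00620), and rose by 1.99 ± 0.16 in SD (SE, adjusted p = 5.23e-07). Without replicate 1 of ZT24 LD the LD call was lost, and with replicate 3 put back the values were 0.93 in LD (adjusted p = 0.342) and 1.75 in SD (adjusted p = 0.0752). KAO, an earlier enzyme of the same pathway, rose by 0.80 ± 0.15 in SD (SE, adjusted p = 0.000906), and EUI1, which inactivates gibberellins, rose by 0.70 ± 0.21 in SD (SE, adjusted p = 0.0164). The EUI1 call was lost without replicate 1 or 2 of ZT24 SD, at 0.62 (adjusted p = 0.0981) and 0.77 (adjusted p = 0.0514), and with limma on log2(TPM + 1), at 0.36 (adjusted p = 0.0861). KO2 fell, at -0.38 ± 0.12 in LD (SE, adjusted p = 0.0250), a call lost without replicate 1 of ZT24 LD or without replicate 1 or 3 of ZT18 LD.

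Expansin genes encode proteins that loosen cell walls. For 5 of the 6 expansin genes whose LD and SD changes were called different, the LD value lay above the SD value, EXPA1 being the exception. The 6 were 66.7% of the expansin genes tested, beside 24.5% of all tested genes. None of the 6 kept its difference call with replicate 3 put back, at edgeR adjusted p from 0.0512 (EXPB2) to 0.844 (EXPA1). The difference calls of EXPA1 and EXPA7 were also lost without most single ZT18 libraries. Of 9 tested, 2 rose and 2 fell in LD, and 5 fell in SD, with medians of -0.44 and -1.0. The share called was 44.4% in LD and 55.6% in SD, near the 39.0% and 51.6% of all tested genes. EXPA2 had 55.0 and 50.7 CPM at ZT24 LD, against 56.1, 62.1 and 57.6 CPM at ZT18 LD, and 15.8 and 19.0 CPM at ZT24 SD, against 62.5, 54.8 and 62.8 CPM at ZT18 SD. It was at -0.15 ± 0.10 in LD (SE, adjusted p = 0.246) and fell, at -1.78 ± 0.11 in SD (SE, adjusted p = 6.16e-08). EXPA4 fell, at -0.44 ± 0.11 in LD (SE, adjusted p = 0.00861) and -1.30 ± 0.12 in SD (SE, adjusted p = 1.91e-06), EXPA10 at -0.92 ± 0.12 in LD (SE, adjusted p = 8.06e-05) and -0.85 ± 0.12 in SD (SE, adjusted p = 9.50e-05), and EXPB3 and EXPB4 at -1.0 ± 0.10 in SD (SE, adjusted p = 5.14e-06) and -1.42 ± 0.26 in SD (SE, adjusted p = 0.00101). EXPB2 rose by 1.65 ± 0.18 in LD (SE, adjusted p = 2.85e-05). EXPA7, at no more than 0.783 CPM in any library, rose by 1.73 ± 0.63 in LD (SE, adjusted p = 0.0448), a call lost without any 1 of 7 of the 10 libraries.

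Of 7 cold and drought genes, 0 were called in LD by edgeR and 5 rose in SD, with medians of -0.20 and 1.34. That was 0% called in LD and 71.4% in SD, beside 39.0% and 51.6% of all tested genes. The LD minus SD difference was called for 3 of the 7 (42.9%), DREB2A, LEA3 and SALT, beside 24.5% of all tested genes. With replicate 3 put back none of these 3 was called, at -1.31 (adjusted p = 0.0674), 0.22 (adjusted p = 0.968) and -1.25 (adjusted p = 0.509). DREB2A, a dehydration-responsive regulator, averaged 17.8 ± 1.26 CPM at ZT24 LD and 18.2 ± 0.950 CPM at ZT18 LD, and 34.7 ± 3.37 CPM at ZT24 SD and 13.7 ± 1.08 CPM at ZT18 SD (SD, n = 2 and 3). The groups overlapped in LD and were apart in SD. It was at -0.03 ± 0.11 in LD (SE, adjusted p = 0.843) and rose by 1.34 ± 0.10 in SD (SE, adjusted p = 5.21e-07). The cold regulators DREB1A and DREB1C rose by 1.70 ± 0.44 in SD (SE, adjusted p = 0.00599) and 3.65 ± 0.66 in SD (SE, adjusted p = 0.000261) from very low levels, none above 1.95 CPM. SALT, a salt-induced lectin, rose by 1.87 ± 0.46 in SD (SE, adjusted p = 0.0134), with replicates at 219.6 and 85.3 CPM at ZT24 SD, and LEA3 rose by 1.09 ± 0.36 in SD (SE, adjusted p = 0.0347). Without replicate 1 of ZT24 SD, the SALT, LEA3 and DREB1A calls were lost, and the LEA3 call was lost without most other single libraries too. In LD, 1 of the 7 had an unadjusted p under 0.05 in edgeR, 2 were called by DESeq2 and 3 by limma on log2(TPM + 1).

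Of the antioxidant genes, CATA, a catalase of the peroxisome, had 40.5 and 42.4 CPM at ZT24 LD, against 180.4, 172 and 190.4 CPM at ZT18 LD. Short-day libraries showed 114 and 97.4 CPM at ZT24 SD, against 62.3, 48.5 and 56.9 CPM at ZT18 SD. LD and SD went in opposite directions, -2.13 ± 0.11 in LD (SE, adjusted p = 2.93e-08) and 0.92 ± 0.10 in SD (SE, adjusted p = 1.39e-05), and CATB did so on a smaller scale, -0.34 ± 0.07 in LD (SE, adjusted p = 0.00301) and 0.43 ± 0.07 in SD (SE, adjusted p = 0.000289). For CATB both calls held with replicate 3 put back, and for CATA the values were then -0.91 in LD (adjusted p = 0.244) and 0.72 in SD (adjusted p = 0.325). APX2, a cytosolic ascorbate peroxidase, rose by 0.53 ± 0.07 in LD (SE, adjusted p = 0.000142), while its rise of 0.20 ± 0.08 in SD (SE, adjusted p = 0.0453) was -0.03 with limma on log2(TPM + 1). APX1 rose by 0.45 ± 0.09 in SD (SE, adjusted p = 0.000946). Of 5 heat shock genes, HSP101 rose by 0.98 ± 0.33 in SD (SE, adjusted p = 0.0262), and no other was called by edgeR in LD or SD, with LD and SD values from -0.70 to 0.99. The HSP101 call was lost without replicate 1 of ZT24 SD, at 0.72 (adjusted p = 0.204), without replicate 1 of ZT18 SD, at 0.75 (adjusted p = 0.0831), and with limma on log2(TPM + 1), at 0.31 (adjusted p = 0.0906). In SD 1 of the 5 was called by DESeq2 and 0 by limma. In LD, 0 of the 5 had an unadjusted p under 0.05 in edgeR and 0 were called by DESeq2 or limma.

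Defence genes differed between the ZT24 LD replicates. CPS4, a diterpene phytoalexin synthase, had 180.2 and 23.3 CPM at ZT24 LD, against 12.6, 23.5 and 22.9 CPM at ZT18 LD, and PBZ1 had 283 and 79.9 CPM at ZT24 LD, against 66.0, 67.3 and 76.5 CPM at ZT18 LD, with replicate 1 highest in both. Neither was called. WRKY62 fell, at -1.98 ± 0.40 in LD (SE, adjusted p = 0.00612), and WRKY76 at -1.77 ± 0.34 in LD (SE, adjusted p = 0.00400). AOS2, a jasmonate synthesis gene, rose by 1.35 ± 0.36 in LD (SE, adjusted p = 0.0214), a call lost without replicate 1 of ZT24 LD, at 0.50 (adjusted p = 0.0589), and without any 1 of the ZT18 LD libraries. NPR1, the salicylate co-activator, fell, at -0.39 ± 0.10 in LD (SE, adjusted p = 0.00695) and -0.53 ± 0.10 in SD (SE, adjusted p = 0.000651).

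Root markers summed higher and dividing cell markers lower at ZT24 in both photoperiods. Light-harvesting and Rubisco genes were detected in every library, and root genes were low. The 6 root genes summed to 29.1 to 31.3 CPM at ZT24 LD and 20.1 to 27.2 CPM at ZT18 LD, and to 31.7 to 32.9 CPM at ZT24 SD and 22.6 to 26.0 CPM at ZT18 SD. Those at 0 in all libraries of a group were 1 at ZT24 and 0 at ZT18 in each photoperiod. Of 4 root genes tested, AMT1;2, an ammonium transporter, rose by 1.04 ± 0.20 in LD (SE, adjusted p = 0.00148) and LSI1, a silicon channel, by 0.72 ± 0.13 in SD (SE, adjusted p = 0.000613). The 6 dividing cell and meristem genes summed to 9.35 to 12.5 CPM at ZT24 LD and 15.9 to 20.9 CPM at ZT18 LD, and to 9.88 to 12.2 CPM at ZT24 SD and 18.7 to 21.1 CPM at ZT18 SD. PCNA, the sliding clamp of DNA replication, made up most of that sum and fell, at -0.86 ± 0.15 in LD (SE, adjusted p = 0.000706) and -0.93 ± 0.15 in SD (SE, adjusted p = 0.000267). CYCB2;2, at 0 counts at ZT24 LD and at most 0.215 CPM at ZT18 LD, was called lower in LD, and no fold is given. The meristem genes OSH1 and OSH15 were too low to be tested. The part of tissue makeup in the results was not tested. The reference genes moved too, ACT1 by 0.40 ± 0.08 in LD (SE, adjusted p = 0.00170) and eEF1A by -0.42 ± 0.08 in LD (SE, adjusted p = 0.00120) and -0.31 ± 0.08 in SD (SE, adjusted p = 0.00614).

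With replicate 3 of ZT24 put back in both photoperiods, 50 of the 79 LD calls among list members kept direction and threshold, and 56 of the 93 SD calls that could be tested. In LD the direction turned for PRR73 (3.86), PRR37 (0.63), TIP2;2 (0.34), GSA (0.08), GA20ox2 (0.93) and CYCB2;2 (1.01). LD calls that ended with the same sign were CATA (-0.91), PIP2;4 (2.40), TIP1;2 (2.28), IAA3 (0.14), IAA13 (-0.48), IAA16 (0.47), NYC1 (-0.54), CHLD (-0.30), CHLG (-0.65), GI (-1.11), ELF3-1 (0.26), EXPA4 (-0.29), EXPA7 (1.47), Ehd3 (-0.11), Hd1 (-1.19), KO2 (-0.42), GID2 (0.27), eEF1A (-0.19), ISA1 (-1.54), DPE1 (0.29), DPE2 (-0.18), SUT2 (0.22) and SnRK1A (0.31). The values in brackets are the log2 fold changes in that fit. SD calls that ended with the same sign were CATA (0.72), APX2 (0.36), PIP2;5 (6.92), PIP2;6 (0.14), TIP1;1 (0.97), IAA3 (-0.00), IAA6 (0.76), IAA9 (0.25), IAA13 (-0.49), IAA18 (0.58), IAA19 (0.21), IAA20 (1.56), IAA24 (-0.39), IAA30 (-0.58), IAA31 (0.77), ZEP (2.23), HEMA1 (1.00), CHLI (-0.77), DVR (-0.57), PRR73 (2.68), GI (-1.44), LEA3 (0.56), SALT (1.47), NPR1 (-0.46), ELF3-1 (0.40), EXPA2 (-0.86), EXPB3 (-0.47), MADS14 (0.84), Hd1 (-1.07), Hd16 (0.24), GA20ox2 (1.75), eEF1A (-0.27), LSI1 (0.47), ISA1 (-1.61), AGPS2 (-0.39), SSIIb (0.67) and TPP1 (-0.36).

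Among calls that were kept with replicate 3 put back, the LD value moved furthest for PRR95 and CAB1R. It was 3.17 for CHLH, 2.05 for HEMA1, 1.94 for PIP2;2, 1.71 for IAA31, 1.69 for SSIIb and 1.29 for APX2. In SD it was -1.43 for CHLG and 1.72 for SSI.

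Single libraries decided further calls. Without replicate 1 of ZT24 LD, the LD calls were lost for NYC1 (-0.27), GSA (-0.35), CHLD (-0.41), CHLG (-0.34), NPR1 (-0.35), EXPA4 (-0.40) and DPE2 (-0.30), and without replicate 2 of ZT24 LD for IAA13 (-0.27). In SD the call of eEF1A was lost without replicate 1 of ZT24 SD (-0.25) and that of Hd16 without replicate 2 of ZT24 SD (0.22). The SD call of APX2 was lost without any 1 of 9 of the 10 libraries, at 0.11 without replicate 1 of ZT24 SD, and the LD call of CYCB2;2 without any 1 of 8. SUT2 in both photoperiods, and PIP2;6, IAA9, IAA19, IAA24 and IAA30 in SD, also lost calls without single libraries. With limma on log2(TPM + 1) the calls of APX1 in SD (0.22), MADS50 in LD (0.22), Hd16 in SD (0.04), PSY1 in LD (0.15) and ACT1 in LD (0.19) were lost as well, and so were those of GID2 and SUT2 in both photoperiods, SnRK1A in LD and LEA3, IAA9, IAA19 and PIP2;6 in SD.

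The late night also differed between photoperiods when replicate 3 was left out. The change in LD minus the change in SD was called for 6325 genes (24.5%), 3444 above 0 (13.4%) and 2881 below (11.2%), and for 56 of the 144 list members (38.9%). With replicate 3 put back 204 genes were called, 202 of them among the 6325, and of the 56 members LHY, LIR1 and SGR kept their calls. These differences moved with the choice of ZT24 libraries, and ZT24 also came after 10 h of dark in LD and after 14 h in SD, which cannot be told apart from day length.

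Within the 10 libraries, PRR73, PRR37, GI and PRR95 had the strongest differences of the clock genes, all toward a lower change in LD. TIP1;2 at -3.52 ± 0.14 (SE, adjusted p = 4.48e-08), CATA at -3.04 ± 0.15 (SE, adjusted p = 2.80e-07) and PIP2;4 at -3.00 ± 0.30 (SE, adjusted p = 3.18e-05) lay on the same side. On the other side were EXPA7 at 2.74 ± 0.87 (SE, adjusted p = 0.0385), CHLG at 1.65 ± 0.16 (SE, adjusted p = 3.38e-05), ISA1 at 1.65 ± 0.19 (SE, adjusted p = 7.47e-05), EXPA2 at 1.63 ± 0.14 (SE, adjusted p = 1.40e-05) and LHY. Opposite calls in LD and SD were made for 6 list members: PRR73, CATA, CATB, GA20ox2, NYC1 and IAA3. IAA3 moved least, by 0.22 in LD and -0.24 in SD. Its LD call was lost without any 1 of 5 libraries and with limma on log2(TPM + 1), at 0.01 (adjusted p = 0.954), and its SD call without replicate 2 of ZT24 SD or replicate 1 or 3 of ZT18 SD.

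**Figure D5:**
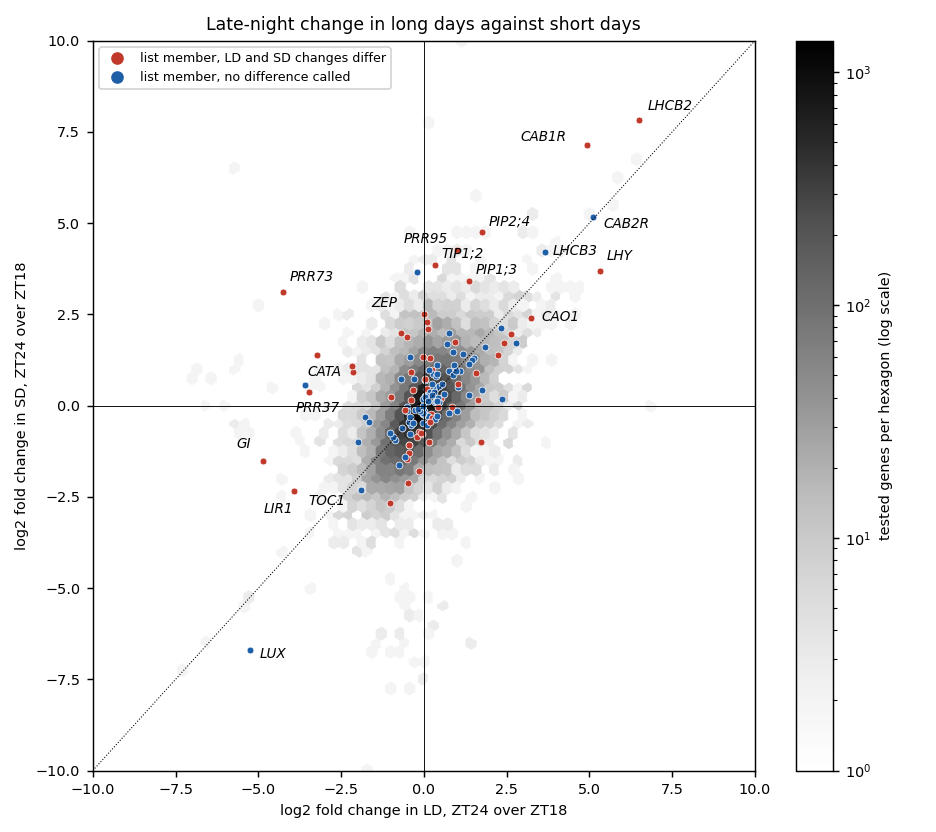
log2 fold change of ZT24 over ZT18 in LD (x axis) and SD (y axis); grey hexagons count all tested genes on a log colour scale, with values past the frame drawn at its edge, and points are list members, red where the LD and SD changes were called different in the 10 libraries and blue elsewhere, without 4 members that had 0 counts in a whole group. LHCB2, CAB1R, CAB2R, LHCB3 and LHY lie at the upper right, LUX at the lower left and PRR73 at the upper left.

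Names were given here only to list genes that passed the identity check. Os08g0435900, at rank 20 of the shared rises, was listed as LHCA4 but did not pass. The strongest shared changes belonged to genes without a name given here. By the smaller of their LD and SD changes, the first shared rises were Os10g0533500 and Os03g0228200. Os10g0533500 had 12.8 and 11.7 CPM at ZT24 LD, against 0 counts in every ZT18 LD library, and 37.7 and 30.0 CPM at ZT24 SD, against 0, 0 and 0.102 CPM at ZT18 SD, and no fold is given. Os03g0228200 was at 8.98 in LD and 9.32 in SD. The first shared falls were Os10g0533100, at -7.58 in LD and -8.20 in SD, and Os04g0675400, at -6.70 in LD and -7.94 in SD. Os10g0533100 was near the counting limit at ZT24 SD, at 0.144 and 0.0313 CPM, where 3 counts were worth 0.108 and 0.0938 CPM. Its SD value is therefore a poor measure of size. Of 3460 shared falls ranked in this way, LUX was at rank 6, LIR1 at 68, TOC1 at 132 and GI at 264.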

How the data were processed

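RNA was extracted from whole plants and made into strand-specific libraries, per the labels' protocols; whether counting used strand is not given in the sources used here. The authors deposited raw counts per gene and TPM values for 74 libraries. HISAT2, StringTie and build IRGSP-1.0 are named in the submitters' processing notes. A further column, a mean of 2 others, was left out of the 75.

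For the tests, counts of 10 libraries went into edgeR 4.0.16 (R 4.3.3; filterByExpr, TMM, robust quasi-likelihood fit over 4 group means, residual df 6, Benjamini-Hochberg over 25786 of 37849 genes, threshold 0.05). CPM use TMM-scaled totals. For the highest mean of the 6 times, CPM were scaled over all libraries of the series that were not in doubt. DESeq2 1.42.0, limma 3.58.1 on log2(TPM + 1) or log2(TPM + 0.1) and other filters, scalings and library sets were alternatives. The code was tested on simulated data.

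Members and lists were chosen with earlier results of these data known. Of 212 list genes, 152 passed a check of symbol, chromosome and place (within 2 Mb) against RefSeq names and 60 were left out; the builds differ, so no coordinates are given. Named were all clock and evening complex genes that passed, and up to 4 called members of each other list by size. The 10 largest shared rises and falls among list genes that passed were named too, as were members whose LD and SD changes differed. PRR59, FKF1, ZTL1, ZTL2, ELF3-2 and ELF4a of the clock and evening complex lists did not pass. Every further list gene in the text was picked with its values already known.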

Additional observations from a re-analysis of the deposited data

Results flagged for a closer look

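The change between ZT24 and ZT18 differed between LD and SD for 6325 genes by edgeR's test of the difference itself, with replicate 3 of ZT24 left out. With replicate 3 put back the number was 204. Among list members, values below are the LD log2 change minus the SD log2 change. The LD value was the lower one for CATA (-3.04), CATB (-0.77), APX1 (-0.37), PIP1;3 (-2.06), PIP2;2 (-0.81), PIP2;4 (-3.00), TIP1;1 (-1.10), TIP1;2 (-3.52), TIP2;2 (-1.24), IAA6 (-0.71), ZEP (-2.52), NCED3 (-1.98) and NYC1 (-1.33), and also for SGR (-2.18), LIR1 (-1.59), PRR73 (-7.38), PRR37 (-3.85), PRR95 (-3.26), GI (-3.34), DREB2A (-1.37), LEA3 (-3.27), SALT (-2.37), EXPA1 (-4.62), KO2 (-0.53), GA20ox2 (-2.68), CAB1R (-2.24), LHCB2 (-1.33), PHYC (-0.45) and LSI1 (-0.70). It was the higher one for RCA (0.86), APX2 (0.33), IAA1 (0.69), IAA3 (0.46), IAA17 (0.58), IAA23 (0.90), PSY2 (0.68), GSA (0.64), CHLI (0.64), CHLD (0.96), DVR (0.72), CHLG (1.65) and CAO1 (0.83), and also for LHY (1.62), EXPA2 (1.63), EXPA4 (0.86), EXPB2 (1.50), EXPB3 (1.16), EXPA7 (2.74), NIA1 (0.71), GS2 (0.46), Fd-GOGAT (0.57), PHOT1A (0.67), ISA1 (1.65), DPE2 (0.64), AGPS2 (0.62) and SSIIb (0.44). Of these 56 members, LHY, LIR1 and SGR kept their calls with replicate 3 put back, 44 lost theirs and 9 turned in sign. The values for single members are therefore given as measurements of these 10 libraries. LD and SD plants of the same ZT also stood at different times after dusk, which cannot be told apart from day length.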

How the results depend on the processing

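The counts of genes called rest most on which libraries and which size of change are taken. With replicate 3 of ZT24 put back, 5895 genes were called in LD, 7642 in SD, 3514 in the same direction in both and 204 for the difference, and 50 list members in LD and 59 in SD. With all 74 libraries under their labels the numbers were 6450, 8520, 3795 and 397, with 54 and 48 members. Asking for a log2 change of at least 1 left 3261, 5337, 1819 and 2576 genes, and 36 and 49 members. Leaving out each library in turn gave 7160 to 10041 genes in LD, 10463 to 13343 in SD, 4973 to 6253 shared and 4399 to 6044 for the difference, and 65 to 78 members in LD and 80 to 93 in SD. Where this left 1 library in a group, that library was assumed to vary like the others. DESeq2 called 9960, 13149, 6555 and 6842 genes, while limma on log2(TPM + 1) moved the share of higher calls to 25.4% in LD and 29.9% in SD, against 48.8% and 48.5% in edgeR.

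With the replicate number as a block, 9836 genes were called in LD, 13167 in SD, 6532 shared and 6149 for the difference, and 75 and 96 members. The samples share a number but no labelled pairing: correlations of same-numbered deviations were 0.04 and 0.15 in LD and 0.09 and 0.08 in SD. With the block, 71 of 79 LD, 89 of 94 SD and 45 of 56 difference calls of members were kept.

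Directions turned with replicate 3 put back, and with all 74 libraries in the second value, for PRR73 in LD (3.86 and 3.86), PRR37 in LD (0.63 and 0.62), TIP2;2 in LD (0.34 and 0.33), GSA in LD (0.08 and 0.07), CYCB2;2 in LD (1.01 and 1.00) and GA20ox2 in LD (0.93 and 0.92). For LD minus SD the same held for PRR73 (1.17 and 1.24), PRR37 (0.55 and 0.60), PRR95 (0.35 and 0.41), GI (0.32 and 0.37), CAB1R (1.24 and 1.29), LHCB2 (0.75 and 0.81), LEA3 (0.22 and 0.28), PIP2;2 (0.41 and 0.46) and TIP2;2 (0.49 and 0.54), and with all 74 libraries for TIP1;1 (0.02). APX2 in SD was -0.03 in the 3 limma fits. The cause was not tested. Over every alternative, 38 of 79 LD, 38 of 94 SD and 0 of 56 difference calls of members were kept. For the 56 difference calls, DESeq2 kept 56, and fits without 1 ZT18 library kept 45 to 52. Fits without 1 ZT24 library lost difference calls too, but left 1 library in a group, so their number is not given. The fit with replicate 3 put back kept 3 and the fit of all 74 libraries kept 1. Lists by product words and promoter motif shares were not run. Counts of 3 or fewer limit low genes such as LUX at ZT24 SD.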
